A study of Mus musculus with 6 samples.

Results

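The endothelial cells (ECs) of the mouse fetal lung were compared between embryonic day (E) 15.5 and E18.5. ECs were chosen by their own transcripts in cells with at least 700 genes and 0.5% to 10% mitochondrial unique molecular identifiers (UMIs, tags that count captured RNA molecules). A cell was kept as an EC with at least 3 UMIs of Pecam1, Cdh5 and Cldn5 together, all of them genes of EC junctions, and at most 2 UMIs of the collagen genes Col1a1 and Col3a1. The rule kept 8911 ECs at E15.5 and 9083 at E18.5, which is 17994 of 21191 cells of usable quality at these ages and of 59793 such cells in the series. ECs without a UMI of the cycling genes Mki67 and Top2a, called non-cycling here, numbered 6040 at E15.5 and 8124 at E18.5. Exactly 3 UMIs of the EC genes were found in 20 and 27 ECs, and 12 and 23 cells fell just under this limit.

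Between these ages the mouse lung passes from branching of its airways to the saccular stage, in which distal sacs widen and capillaries come to lie against the epithelium in readiness for breathing. Arteries grow alongside the airways, and the capillary bed holds general capillary cells, which act as progenitors, and aerocytes, which are broad thin cells specialised for gas exchange. The reporter used to collect the cells marks Cxcl12, a chemokine secreted by arterial endothelium among other cells.

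The mice were Cxcl12DsRed/+, so that 1 Cxcl12 allele was replaced by a red reporter in every sorted sample, and cells of 2 to 4 lungs were mixed for each library. Sorting took cells that were positive for CD31 (the protein of Pecam1) and the reporter and negative for CD45 and EpCAM, markers of blood and epithelial cells, and CD31-negative reporter cells were also collected. Each age is 1 droplet library of 3′ tags, so there is no replicate error, no test and no p-value between ages. The other libraries of the series served as side values: sorted cells at E13.5 and postnatal day (P) 8, and whole lungs at E18.5 labelled heterozygous control (Cxcl12DsRed/+) and homozygous null (Cxcl12DsRed/DsRed), all with the same EC rule. Because reporter-positive cells were collected, shares of cells describe the sort and not the whole endothelium, and a summed level cannot separate more cells with a transcript from more transcript per cell unless the share of cells is given as well.

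The E15.5 library held 117522172 UMIs in 12789 barcodes and the E18.5 library 65056925 in 10020. ECs had a median of 8455 UMIs at E15.5 and 5636 at E18.5, and the 2 libraries shared 34 barcodes, of which 18 were ECs in both. Cxcl12 stood at 5.44 CPM (UMIs of a gene per 1000000 UMIs) in non-cycling ECs of the whole lung labelled control, whose mice should carry 1 intact allele, and at 698 CPM in that labelled null. This goes against the labels, and the names under which the matrices were deposited give the opposite genotypes to the labels. Both are therefore used only as further E18.5 lungs whose genotype is not relied on. Xist, an RNA of the inactive X chromosome, went from 782 CPM at E15.5 to 237 CPM at E18.5 while the Y-linked Ddx3y went from 16.4 to 55.5 CPM, so transcripts of both sexes were present at both ages in different proportion. Genes of this kind were not named further.

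The EC label was checked on 16 endothelial genes that the rule did not use, and all of them were past the minimum level set below. Ramp2, a receptor partner for adrenomedullin, was found in 89.8% of ECs at E15.5 and 98% at E18.5 after each cell was thinned to 2000 UMIs. Egfl7, a secreted endothelial protein, was found in 89.6% and 95.7%. Markers of other cell types were low in non-cycling ECs, though less so for epithelial genes at E18.5. There the 17 mesenchymal genes summed to 104 CPM at E15.5 and 51.0 CPM at E18.5. The 17 immune genes summed to 30.2 and 82.8 CPM, and the 15 epithelial genes to 9.42 and 192 CPM. Over all ECs, cycling cells included, the epithelial genes summed to 14.4 and 602 CPM. Ptprc, which encodes CD45, stood at 0.0196 and 0.0801 CPM. The rule capped Col1a1 and Col3a1, and the sort selected against CD45 and EpCAM. Low values of these markers were therefore partly set in advance and are no separate check of the label. Haemoglobin made up 0.0341% and 0.127% of UMIs. The part of such RNA in the gene groups below, and in levels given for cycling ECs, was not tested. Levels of the rule's own genes and of Cxcl12, which the sort used, are not findings.

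Levels are summed UMIs of a gene as CPM, with an exact 95% Poisson interval. Intervals of cell shares are exact Clopper-Pearson ones, and both kinds cover counting error only. Log2 ratios are E18.5 over E15.5 after 0.5 CPM was added to both. A gene counted as tested at 20 CPM or more in at least 1 age, and as higher or lower when it differed at least 2-fold. In all ECs 630 of 6524 genes were higher at E18.5 (9.66%) and 279 were lower (4.28%). In non-cycling ECs 589 of 6421 genes were higher (9.17%) and 206 lower (3.21%), and 550 and 174 genes were called in both sets. The median gene had a log2 ratio of 0.18 in all ECs and 0.17 in non-cycling ECs, so ratios should be read relative to that shift. When ratios were centred on it, the share of higher genes among those called went from 69.3% to 53.0% in all ECs and from 74.1% to 59.3% in non-cycling ECs. At least 4-fold differences lay mostly on the higher side, with 164 genes higher and 21 lower in non-cycling ECs. Unless stated otherwise, values below are from non-cycling ECs.

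**Figure D1:**
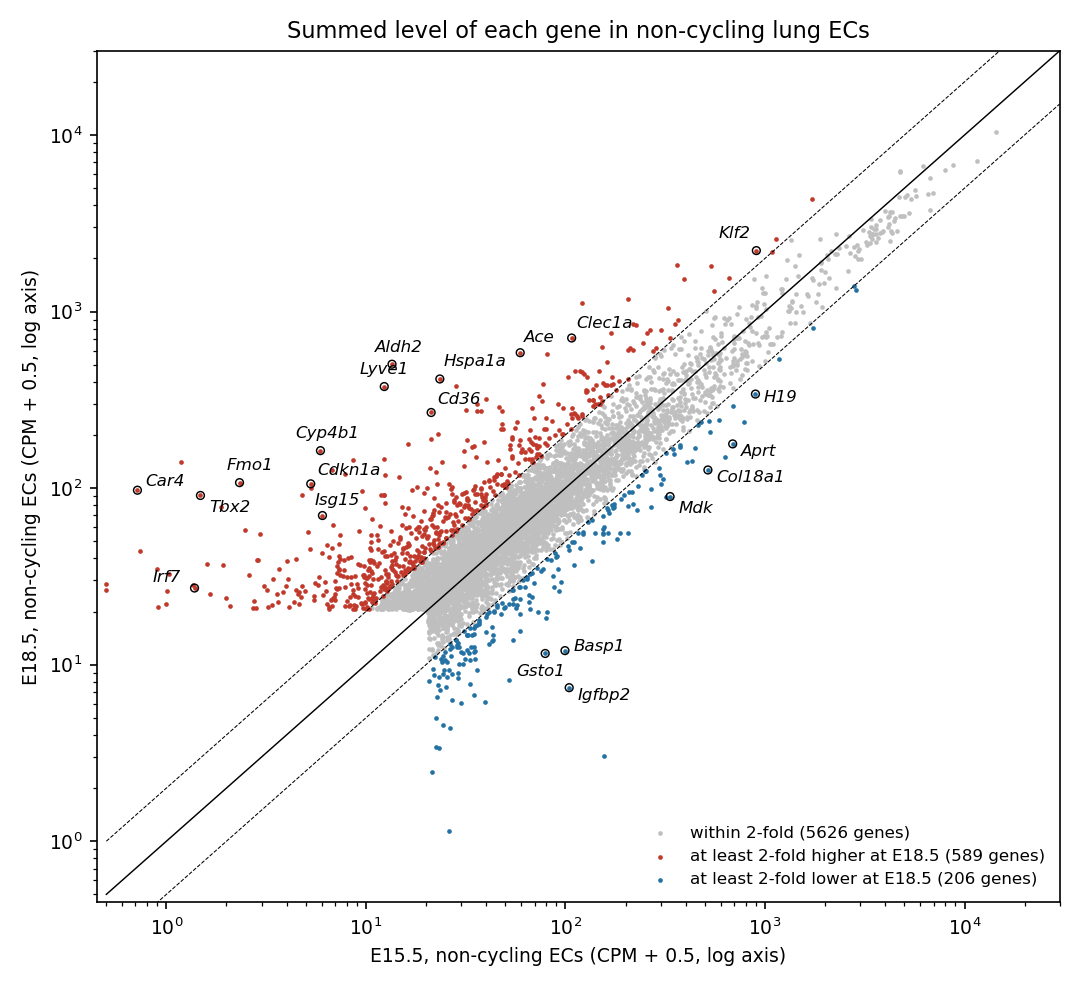
Summed level of each gene past the minimum in non-cycling ECs, in CPM plus 0.5 on log axes, at E15.5 (horizontal) and E18.5 (vertical). Each point is a gene, the solid line marks equal levels and the dashed lines 2-fold differences. The 589 higher genes (red) reach farther from the line than the 206 lower genes (blue), and Car4, Irf7 and Tbx2 lie farthest left among the labelled genes.

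Genes of the cell cycle were lower at E18.5 in the sorted ECs, and less so in ECs of the whole lungs. Over all sorted ECs, 11 of 15 tested genes of S phase were lower at E18.5 and none higher, with a median log2 ratio of -1.19. Pcna, the sliding clamp of DNA replication, stood at 44.9 CPM at E15.5 and 11.8 CPM at E18.5. Dut, which keeps uracil out of DNA, stood at 216 and 73.5 CPM. Of 22 tested genes of G2 and mitosis 16 were lower and none higher, with a median of -1.11. Birc5 (survivin, of the chromosomal passenger complex) went from 201 to 68.5 CPM, and Ube2c, a ubiquitin-conjugating enzyme that drives mitotic exit, from 262 to 97.7 CPM. The G2 and mitosis list summed to 2004 CPM at E15.5 and 1009 CPM at E18.5 in sorted ECs, but to 1530 and 1744 CPM in ECs of the E18.5 whole lungs labelled control and null, and its median log2 ratio was -0.36 and -0.25 with these as E18.5. The median of the S phase list was -0.61 and -0.64 there, and Birc5 stood at 110 and 131 CPM. The split of the cells by Mki67 and Top2a, given as a description since these genes define it, put 19% of ECs thinned to 2000 UMIs among the cycling cells at E15.5 and 6.55% at E18.5 (32.2% and 10.6% unthinned). In the whole lungs the shares were 12.8% in both when thinned, and 21.3% and 23.1% unthinned. The low cycling share of sorted E18.5 ECs was therefore not matched by the other E18.5 lungs, which lay between it and E15.5. Those lungs were not sorted by the reporter and differ in labelled genotype, so their ECs need not be the same mix of cells.

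Among cycling ECs alone the mitotic genes named here were within 2-fold at both ages. Birc5 was at 426 CPM at E15.5 and 419 CPM at E18.5, Ube2c at 591 and 603 CPM, and the mitotic kinase gene Plk1 at 59.7 and 62.0 CPM. Ccnb2, a mitotic cyclin, was at 161 and 228 CPM. Pcna, of S phase, was lower among cycling cells too, with 73.7 and 28.8 CPM in cycling cells. The non-cycling set was not free of the programme at E15.5, since Birc5 stood at 39.2 CPM there against 5.62 CPM at E18.5 and Ccnb2 at 34.2 against 6.25 CPM. Among genes of at least 50 CPM, the 5 whose ratio was highest in all ECs relative to non-cycling ECs were all of mitosis (Birc5, Ccna2, Ccnb1, Ccnb2 and Spc24, of the kinetochore). Smc4, a condensin subunit, was among those at the other end, with a log2 ratio of -0.16 in all ECs and 0.73 in non-cycling ECs. The cells were split by Mki67 and Top2a, genes of the same programme. This order and the levels among cycling ECs therefore describe the split and are no separate result.

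**Figure D2:**
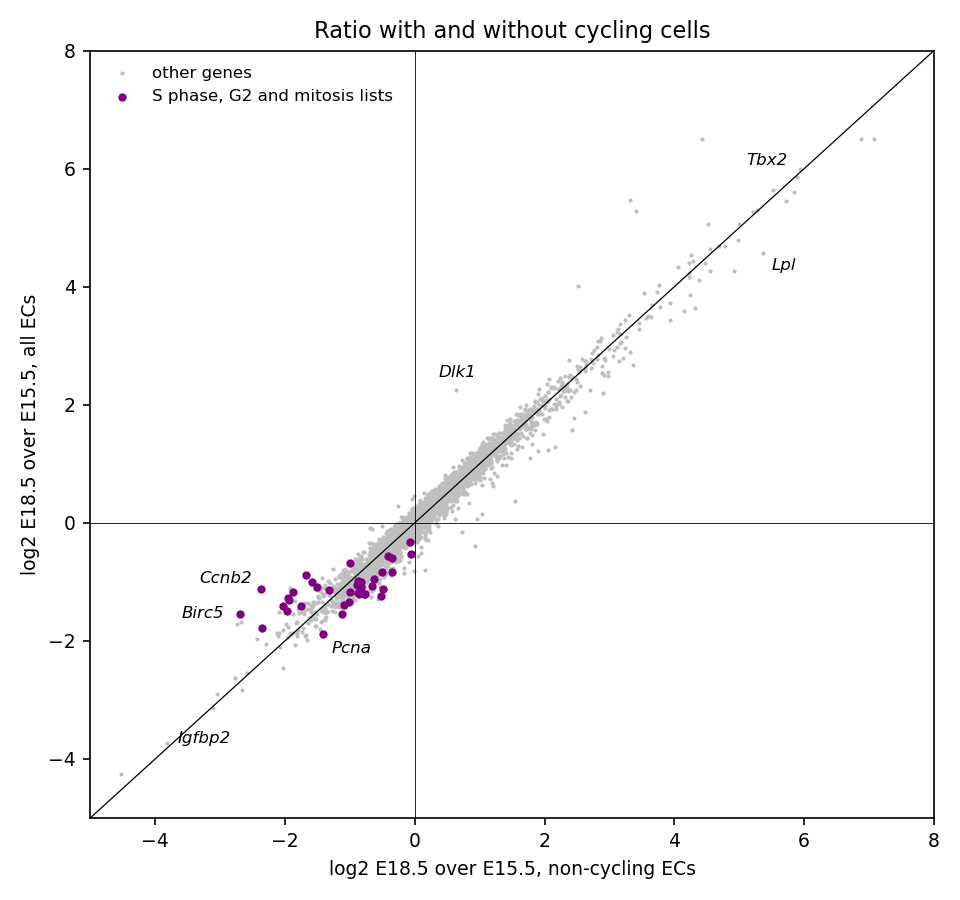
Log2 ratio of each gene past the minimum, E18.5 over E15.5, in non-cycling ECs (horizontal) and in all ECs (vertical), with genes of the S phase, G2 and mitosis lists in purple and the line of equal ratios. Most genes lie on the line, the purple genes are lower at E18.5 in all ECs, and Birc5 and Ccnb2 lie above the line, with ratios that were lower still in non-cycling ECs. Dlk1, a growth-related imprinted gene far above the line, was at 6.12 and 9.75 CPM in non-cycling and 4.39 and 127 CPM in cycling ECs.

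The promoters of these genes were read from the RefSeq table for GRCm38.p6, from 250 bases before to 50 after each start, and searched on both strands. Of the 6524 tested genes 5138 had 1 or more promoters there. The cell cycle homology region (CHR, letters TTTGAA) and the CCAAT box are short elements known from promoters of mitotic genes. Of the list genes, 19 of 22 for G2 and mitosis and 11 of 15 for S phase had an entry. TTTGAA was found in 13 of 19 promoters of the G2 and mitosis list (68.4%), in 11.6% of promoters of all tested genes, in 19.4% of those of genes lower at E18.5 in all ECs and in 10.8% of those of genes higher. The lower genes include most of the G2 and mitosis list, so their share is not separate from that of the list. CCAAT was found in 15 of the 19 (78.9%), in 10 of 12 promoters of the S phase list (83.3%) and in 37.2% of those of all tested genes. An E2F element, TTTGGCGC, was found in 3 of the 12 S phase promoters (25%) and in 0.988% of all tested. A match describes letters in this window and does not show binding. The 4 promoters shown were picked as mitotic genes with both motifs, with TTTGAA and CCAAT in capitals on either strand. They are Cdc20 (chr4:118437294-118437593, minus strand), Ube2c (chr2:164769679-164769978, plus), Ccnb2 (chr9:70421505-70421804, minus) and Plk1 (chr7:122159185-122159484, plus).
Cdc20: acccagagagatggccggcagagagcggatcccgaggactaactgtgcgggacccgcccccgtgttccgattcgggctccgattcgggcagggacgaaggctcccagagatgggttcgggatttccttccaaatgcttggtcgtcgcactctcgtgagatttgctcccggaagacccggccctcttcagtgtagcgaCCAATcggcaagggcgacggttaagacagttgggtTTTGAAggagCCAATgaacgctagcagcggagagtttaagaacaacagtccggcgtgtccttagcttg
Ube2c: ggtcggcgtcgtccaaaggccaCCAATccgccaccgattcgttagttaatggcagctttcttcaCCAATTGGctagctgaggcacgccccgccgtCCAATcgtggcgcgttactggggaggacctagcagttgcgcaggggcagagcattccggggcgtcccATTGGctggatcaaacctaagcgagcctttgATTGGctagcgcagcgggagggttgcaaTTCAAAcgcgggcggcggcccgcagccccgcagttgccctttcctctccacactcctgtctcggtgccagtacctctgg
Ccnb2: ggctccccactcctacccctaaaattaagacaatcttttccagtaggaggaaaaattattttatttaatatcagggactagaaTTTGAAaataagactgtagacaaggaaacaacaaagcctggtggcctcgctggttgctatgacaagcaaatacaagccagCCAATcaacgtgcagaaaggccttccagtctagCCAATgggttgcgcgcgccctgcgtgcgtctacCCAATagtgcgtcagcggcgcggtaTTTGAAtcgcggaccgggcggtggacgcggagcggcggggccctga
Plk1: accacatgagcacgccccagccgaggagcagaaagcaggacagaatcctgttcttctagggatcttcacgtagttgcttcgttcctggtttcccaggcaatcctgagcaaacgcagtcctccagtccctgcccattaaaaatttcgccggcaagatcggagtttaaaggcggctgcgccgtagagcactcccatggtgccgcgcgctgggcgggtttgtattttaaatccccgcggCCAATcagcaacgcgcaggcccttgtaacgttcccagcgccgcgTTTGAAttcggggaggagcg
In these stretches Cdc20 held 1 TTTGAA and 2 CCAAT, Ube2c 1 and 6, Ccnb2 2 and 3, and Plk1 1 and 1. Birc5, whose level followed the same course, held neither.

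Of 8 tested inhibitors of the cell cycle 3 were higher and none lower. Cdkn1a (p21), an inhibitor of cyclin-dependent kinases, stood at 4.79 CPM at E15.5 and 105 CPM at E18.5. It was found in 1.35% of thinned ECs at E15.5 and 16.2% at E18.5, and it was higher in cycling cells too, at 13.5 and 139 CPM. Cdkn1b (p27) stood at 24.6 and 82.0 CPM and the antiproliferative gene Btg2 at 146 and 459 CPM. Btg2 is also on the list of immediate-early and stress genes, for which age and handling cannot be told apart. Cdkn1c (p57), an imprinted inhibitor, was within 2-fold, at 726 and 499 CPM.

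The gene with the highest ratio among those named, Car4, belongs to the aerocytes. Of 13 tested genes of the aerocyte list 8 were higher at E18.5 and none lower, with a median log2 ratio of 1.46. Car4 (carbonic anhydrase on the capillary surface, chr11:84957786-84966044, plus strand, GRCm38 here and below) stood at 0.216 CPM (0.108 to 0.386) at E15.5 and 96.8 CPM (94.1 to 99.5) at E18.5, a log2 ratio of 7.09. It was detected in 0.0788% of thinned ECs at E15.5 and in 8.35% (7.78 to 8.94) at E18.5, and in none of the cells with collagen UMIs and no EC gene, with exact upper limits of 0.218% and 1.90%. Tbx2, a transcription factor (chr11:85832551-85841948, plus), stood at 0.981 CPM (0.728 to 1.29) and 90.3 CPM (87.7 to 93.0), and Prx, which encodes periaxin, at 4.30 and 90.5 CPM. Ednrb, the receptor for endothelin that clears it from the circulation, stood at 34.3 and 173 CPM, and Emp2, a tetraspan membrane protein, at 20.7 and 190 CPM. The log2 ratio of Ednrb, 2.32, stayed past 2-fold in 14 of 15 other settings but was 0.20 at its lowest. A setting among these left out cells marked partly by Ednrb itself, which is no separate check of this gene. Cyp4b1, a cytochrome P450 on the same list, stood at 5.42 and 162 CPM and was detected in 1.24% and 25.6% of thinned ECs. Apln (apelin), a ligand made by aerocytes, was within 2-fold at 15.6 and 27.0 CPM.

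ECs were set apart by 2 or more UMIs of aerocyte (Car4, Ednrb, Apln), arterial (Gja4, Gja5, Bmx) or lymphatic (Prox1, Flt4, Ccl21a) markers, a division added after the data were seen and meant only to locate the levels. Cells with aerocyte markers alone were 156 or 2.58% (2.20 to 3.01) of non-cycling ECs at E15.5 and 1009 or 12.4% (11.7 to 13.2) at E18.5. Car4 and Ednrb, which help define this mark, were themselves higher at E18.5. The larger aerocyte-marked share therefore restates their ratios and is no separate result. Arterial markers alone marked 78.2% and 56.9%, lymphatic markers alone 0.563% and 0.923%, no marker set 11.3% and 17.2%, and several sets 7.4% and 12.5%. Deeper cells pass such a limit more easily, and the cells with no set had a median of 7374 UMIs at E15.5 and 4406 at E18.5. Tbx2 stood at 0.699 CPM in aerocyte-marked cells at E15.5 and at 371 CPM in those at E18.5, against 0.866 and 17.3 CPM in arterial-marked cells. Emp2 was at 2.10 and 730 CPM in aerocyte-marked cells, so the markers alone did not mark the same levels at both ages. Prx was at 4.89 and 276 CPM there, and Pmp22, a myelin-type membrane protein and not a listed aerocyte gene, at 16.8 and 1364 CPM. The E15.5 levels in aerocyte-marked cells come from 156 cells with a median of 8401 UMIs, so the lowest rest on very few UMIs. Tbx2 was also found in 27.1% of the collagen cells without an EC gene at E18.5, above its 11.8% in ECs, so that share gives no background for it.

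General capillary genes were higher in 6 of 13 tested members and lower in none, with a median log2 ratio of 0.80, Cxcl12 being left out of the list because the sort used it. Clec1a, a C-type lectin receptor, stood at 107 CPM (104 to 110) and 708 CPM (700 to 715), and was found in 18.5% and 62.9% of thinned ECs. Of 8 tested genes of capillary lipid uptake 3 were higher and 1 lower, with a median of 0.16 that lay below the 0.17 of all genes. Gpihbp1, which carries lipoprotein lipase to the capillary lumen, stood at 128 and 425 CPM, and Lpl, the lipase itself, at 1.37 CPM (1.07 to 1.74) and 77.2 CPM (74.8 to 79.7). Cd36, a fatty acid transporter, stood at 20.7 and 268 CPM and was detected in 3.24% and 36% of ECs, against 0.059% of collagen cells at E15.5 and none at E18.5 (upper limit 1.90%). The fatty acid binding genes Fabp4 and Fabp5 were at 415 and 407 CPM and at 324 and 225 CPM, Rbp7, which binds retinol, was at 155 and 81.9 CPM, and Tcf15, a transcription factor of capillary ECs that handle lipids, was lower, at 122 and 54.4 CPM, though by under 2-fold with either whole lung as E18.5 (log2 ratios of -0.95 and -0.77). Kit and Aplnr, both known markers of general capillaries, were within 2-fold, at 52.6 and 91.7 CPM and at 38.0 and 39.4 CPM.

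Lyve1, a hyaluronan receptor usually taken as a lymphatic marker, was among the genes with the highest ratios. It stood at 11.9 CPM (10.9 to 12.8) at E15.5 and 375 CPM (370 to 381) at E18.5 and was found in 2.25% and 36.9% of thinned ECs. At E18.5 its level was 204 CPM in arterial-marked, 709 CPM in aerocyte-marked, 1101 CPM in lymphatic-marked and 544 CPM in unmarked cells, so it was not limited to the cells with lymphatic markers. Of 6 tested lymphatic genes 4 were higher and 1 lower, with a median log2 ratio of 1.60 that turned to -0.91 when the marked cells were left out. Flt4, the receptor of the lymphatic growth factor VEGF-C, stood at 17.1 and 38.1 CPM, a log2 ratio of 1.14 that fell under 2-fold when centred on the median ratio (0.96) or without the marked cells, some of them marked by Flt4 itself (0.82). Nts (neurotensin) on the same list was lower, at 23.9 and 10.6 CPM, but its log2 ratio of -1.13 was under 2-fold with a pseudocount of 5 CPM (-0.89), with a stricter EC rule (-0.91) and, just, in all ECs (-0.99).

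Arterial genes had no common direction. Of 20 tested members 3 were higher, 1 was lower and 16 were within 2-fold, with a median log2 ratio of 0.16 that is close to the 0.17 of all genes. Dll4, a Notch ligand, stood at 79.8 and 175 CPM, Hey1, a Notch target, at 162 and 336 CPM, and Acvrl1 (ALK1), the endothelial BMP9 receptor, at 206 and 609 CPM. The higher calls of Dll4 and Hey1 were lost when ratios were centred on the median, leaving Acvrl1, and with either whole lung as E18.5. Dkk2, a secreted Wnt regulator, was lower at 190 and 85.9 CPM but within 2-fold in all ECs (log2 ratio -0.87), where 5 arterial genes were higher and none lower. Of 6 tested venous genes 1 was higher and none lower, and of 13 tested genes of tip cells and sprouting 3 were higher and 1 lower. Gja4 (connexin 37) stood at 986 and 1101 CPM, and Eln (elastin) at 1015 and 1039 CPM. The list summed to 6958 CPM at E15.5 and 7587 CPM at E18.5 in the sorted cells, but to 3181 and 5007 CPM in the E18.5 whole lungs labelled control and null, both below the E15.5 level. The whole lungs were not sorted by the reporter, which marks arterial ECs among other cells. Between sorted E15.5 and the whole lungs, sort and age cannot therefore be told apart, in these sums or the ratios of Dll4 and Hey1. Sorted E18.5 and the whole lungs are of the same age but differ in sort, and 1 whole lung is labelled null. The cause of the gap between these sums was not tested.
Adgrg6, an adhesion receptor outside the list, was highest in arterial-marked cells at E18.5, with 148 CPM there, 13 CPM in aerocyte-marked and 17.1 CPM in unmarked cells. At E15.5 it stood at 5.02 CPM in arterial-marked cells.

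**Figure D3:**
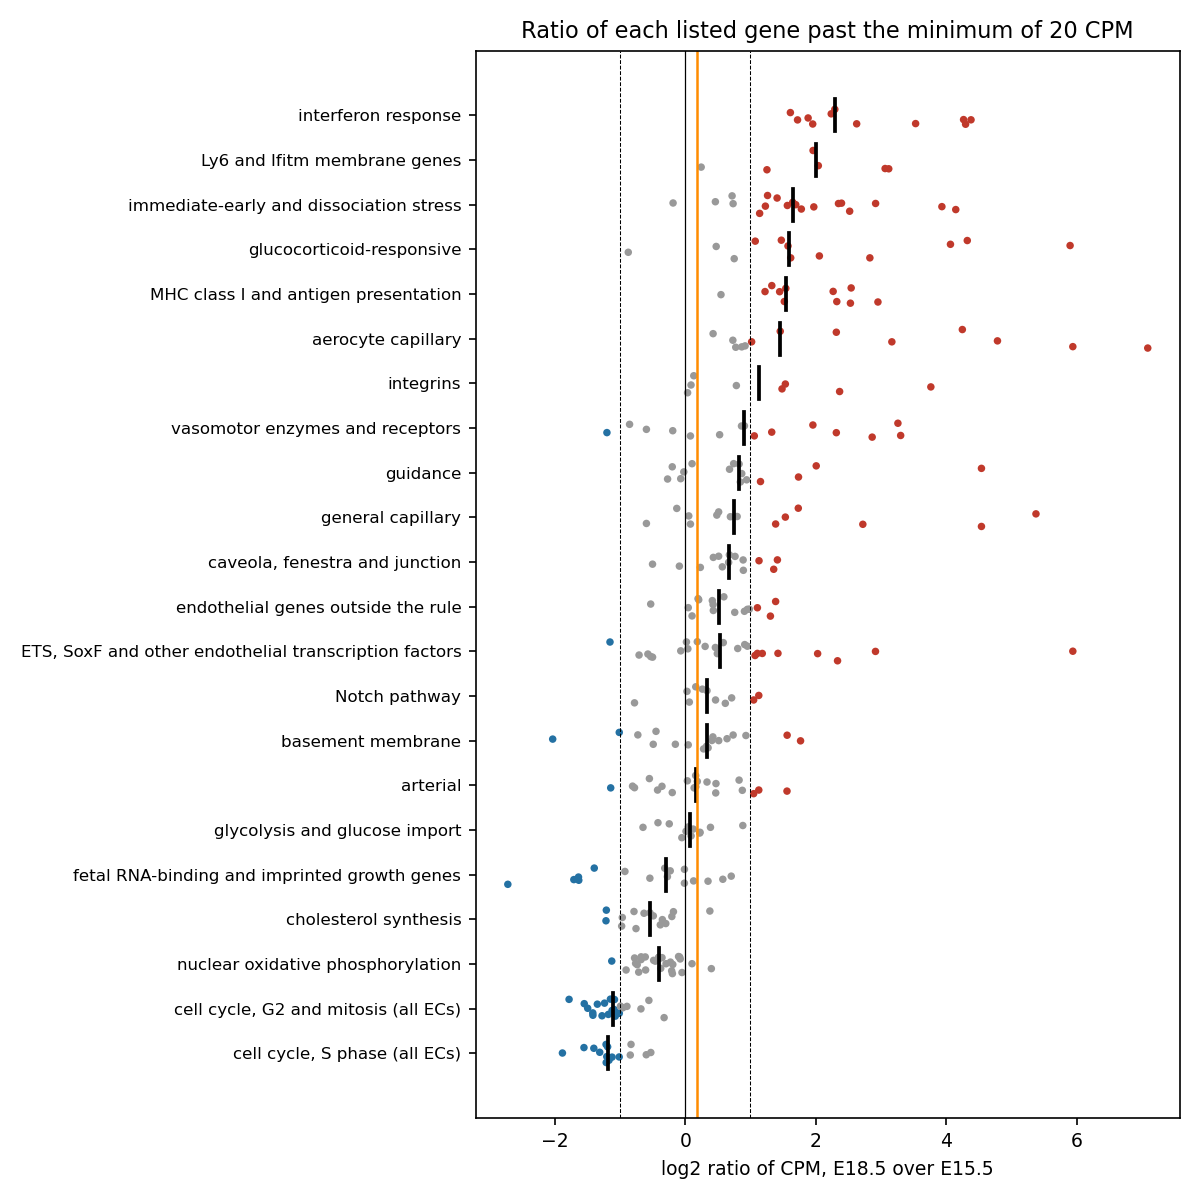
Log2 ratio, E18.5 over E15.5, of each listed gene past the minimum in non-cycling ECs (all ECs for the 2 cell cycle lists). Each point is a gene, colour marks at least 2-fold differences, the black bar is the list's median, dashed lines mark 2-fold and the orange line is the median of all tested genes. Every tested interferon gene lies above 2-fold, while the medians of the oxidative phosphorylation and cell cycle lists lie left of the orange line.

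Receptors and enzymes that set vascular tone were higher in 7 of 15 tested members and lower in 1, with a median log2 ratio of 0.91. Ace, the angiotensin-converting enzyme of lung endothelium (chr11:105967945-105989964, plus), stood at 58.8 CPM (56.7 to 61.0) at E15.5 and 584 CPM (577 to 591) at E18.5. It was found in 10.0% (9.41 to 10.7) and 63.4% (62.4 to 64.4) of thinned ECs, against 1.36% and 6.25% of collagen cells. Calcrl, the receptor that pairs with Ramp2, stood at 218 and 846 CPM and was in 29.1% and 71.8% of ECs. Slco2a1, which takes up prostaglandins, stood at 37.1 and 273 CPM, and Npr1, the receptor of atrial natriuretic peptide, at 47.2 and 119 CPM. Ptgis, which makes prostacyclin, was lower at 53.8 and 23.2 CPM, and Nos3 (endothelial nitric oxide synthase) was within 2-fold at 59.7 and 52.2 CPM. Thbd (thrombomodulin), an anticoagulant receptor, stood at 31.5 and 186 CPM. Scn3b, a sodium channel subunit, stood at 11.8 and 145 CPM.

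Aldh2, Fmo1 and Sult1a1 were 3 of the 20 highest ratios, and no list of such enzymes was set. Aldh2, mitochondrial aldehyde dehydrogenase (chr5:121566027-121593824, minus), stood at 13 CPM (12 to 14) and 503 CPM (496 to 509). It was found in 2.36% and 56.2% of thinned ECs. The collagen cells carried it in 22% and 53.6%, so it was not particular to ECs. Fmo1, a flavin-containing monooxygenase, stood at 1.82 and 107 CPM. Sult1a1, a phenol sulfotransferase, stood at 8.10 and 143 CPM, with 117 to 144 CPM in both whole lungs at E18.5 and 5.99 CPM at P8. Aldh2 was at a like level in arterial-marked (564 CPM), aerocyte-marked (369 CPM) and unmarked cells (490 CPM) at E18.5, each above its E15.5 levels of 13.2, 7.69 and 11.6 CPM.

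Interferon-responsive genes had the highest median of the lists other than those of other cell types. All 11 tested members of 20 listed were higher, with a median log2 ratio of 2.29, and the 20 genes summed to 106 CPM at E15.5 and 594 CPM at E18.5. Irf7, the transcription factor that amplifies the interferon response, stood at 0.883 CPM (0.644 to 1.18) and 26.7 CPM (25.2 to 28.1). Isg15, a ubiquitin-like modifier, stood at 5.55 and 69.4 CPM and was found in 0.822% and 10.4% of thinned ECs. Oasl2 stood at 1.41 and 36.3 CPM and Irf9, which joins the STAT proteins at their target genes, at 10.3 and 66.0 CPM. Rtp4, an interferon-induced transmembrane protein among the 20 highest ratios, stood at 1.98 and 57.4 CPM, and Slfn5 at 6.26 and 126 CPM. Rtp4 was at 53.4 CPM in arterial-marked, 57.6 in aerocyte-marked, 42.4 in lymphatic-marked and 82.5 CPM in unmarked cells at E18.5, and at 4.19 CPM or less in each at E15.5. In the whole lungs at E18.5 the list summed to 510 CPM (labelled control) and 359 CPM (labelled null). Isg15 was lower at P8, at 36.5 CPM.
The promoter of Isg15 (chr4:156200769-156201068, minus strand, GRCm38.p6) is shown for its tandem copies of GAAANNGAA, the core of the interferon-stimulated response element, in capitals. This motif was added after the data were seen.
Isg15: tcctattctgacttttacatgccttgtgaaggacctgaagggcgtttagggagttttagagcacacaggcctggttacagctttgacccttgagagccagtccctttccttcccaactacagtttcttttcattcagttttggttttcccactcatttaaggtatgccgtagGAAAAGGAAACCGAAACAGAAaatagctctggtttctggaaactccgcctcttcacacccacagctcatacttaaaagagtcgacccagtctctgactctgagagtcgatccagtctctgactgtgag
It held 3 overlapping copies. The letters were found in 4 of 11 promoters of the tested interferon genes that had an entry (36.4%, 9 of 11 genes) and in 7.05% of promoters of all tested genes. Those of Irf7 and Oasl2 held none in this window.

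Genes of MHC class I presentation were higher as well, in 10 of 11 tested members and lower in none, with a median of 1.54. H2-D1, a classical class I chain of a family with near-identical members, stood at 661 CPM (654 to 668) and 1544 CPM (1533 to 1555) and was found in 63.5% and 91.4% of thinned ECs. Psmb8, an immunoproteasome subunit, stood at 16.4 and 97.4 CPM, Tap1, a peptide transporter, at 2.22 and 20.5 CPM, and B2m, the common light chain, at 246 and 360 CPM, within 2-fold. H2-D1 stood at 716 and 800 CPM in the whole lungs labelled control and null, nearer to the sorted E15.5 level than to the sorted E18.5 level. Of the Ly6 and Ifitm genes 5 of 6 were higher. Ifitm3, an antiviral membrane protein, stood at 393 and 1531 CPM and was in 48.3% and 88.0% of ECs. Ly6a (Sca-1) stood at 35.4 and 299 CPM and Ly6c1 at 31.4 and 276 CPM, but these 2 genes share stretches of their 3′ ends, so their split is uncertain.

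Glucocorticoid-responsive genes were higher in 9 of 12 tested members and lower in none, with a median log2 ratio of 1.60. Circulating glucocorticoid is known to rise in late gestation in mice. Zbtb16, a zinc finger factor that responds strongly to the hormone, stood at 0.235 CPM (0.122 to 0.411) at E15.5 and 43.3 CPM (41.5 to 45.2) at E18.5. It was at 42.2 and 37.9 CPM in the whole lungs and at 2.45 CPM at P8. Klf9 stood at 5.55 and 42.5 CPM, Tsc22d3 (GILZ) at 58.0 and 174 CPM, and Per1 at 5.81 and 25.7 CPM. Fkbp5 stood at 10.4 and 22.5 CPM, a log2 ratio of 1.07 that was 0.76, under 2-fold, in all ECs. Nr3c1, the glucocorticoid receptor, stood at 29.8 and 92.4 CPM. Cdkn1a and Sult1a1, named above, also belong to this list. Glul, glutamine synthetase, was within 2-fold, at 270 and 147 CPM, but when ratios were centred on the median it was lower and Fkbp5 was no longer higher, so that 8 genes were higher and 1 lower.

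**Figure D4:**
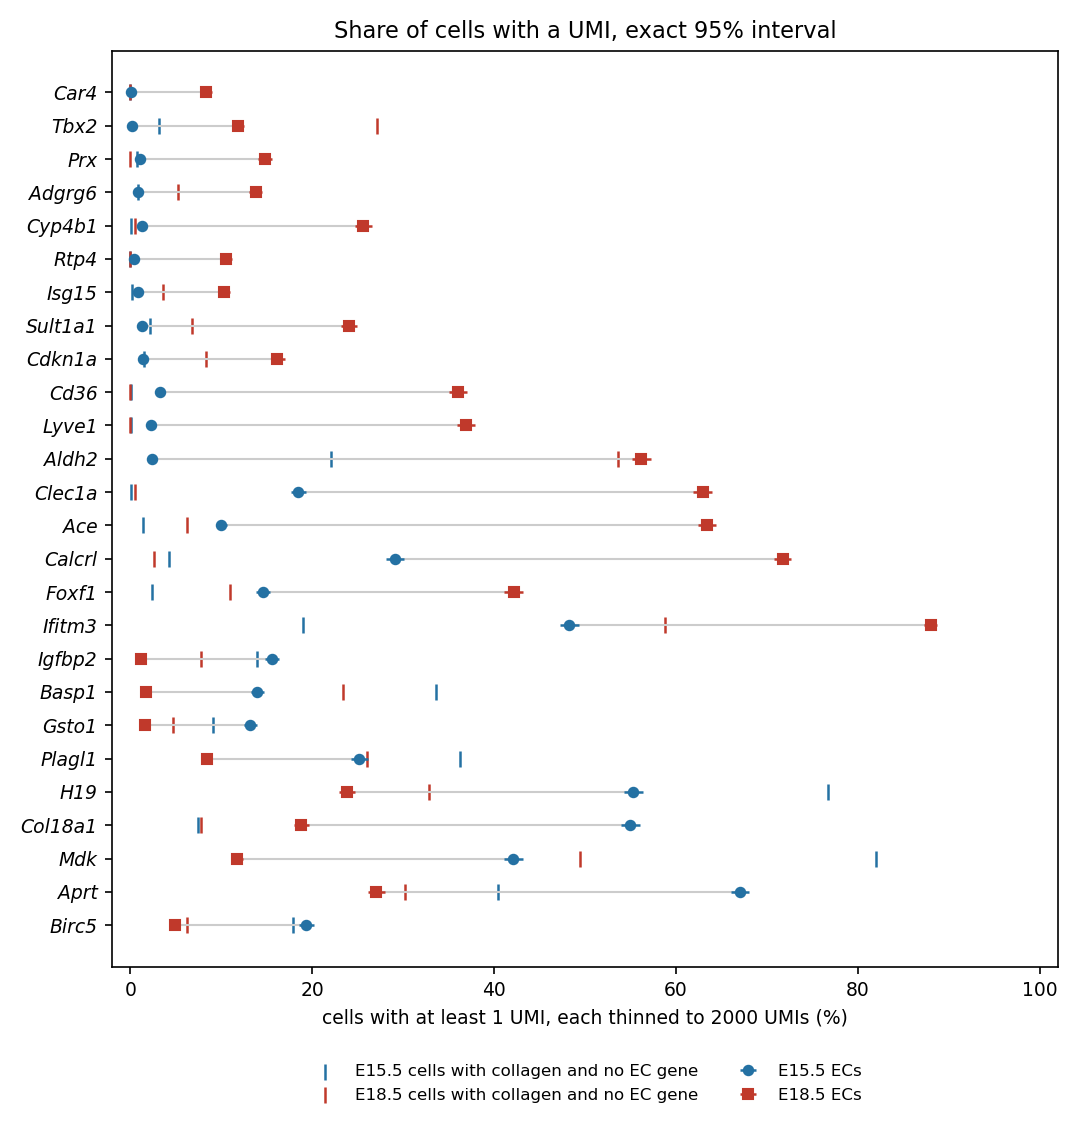
Share of ECs with at least 1 UMI of a gene at E15.5 (blue circles) and E18.5 (red squares), each cell thinned to 2000 UMIs, with exact 95% intervals that are often narrower than the marker. Vertical ticks give the share in cells with collagen UMIs and no EC gene of the same library. Ace, Clec1a and Aldh2 go from under 20% to over 50% of ECs, Car4 stays at 8.35% at E18.5, and the ticks of Tbx2, Basp1 and Mdk lie above the shares in ECs.

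Endothelial transcription factors were higher in 8 of 24 tested members and lower in 1, and in 6 when ratios were centred. Foxf1, a forkhead factor needed for lung capillaries, stood at 75.6 CPM (73.3 to 78.1) and 310 CPM (305 to 315), and was at 267 and 317 CPM in the whole lungs and 884 CPM at P8. Tbx3, close to Tbx2 in sequence, stood at 33.6 and 171 CPM, Meox1 at 5.85 and 47.4 CPM, and Gata2 at 59.2 and 159 CPM. Erg, the ETS factor often used to stain endothelial nuclei, stood at 18.4 and 40.2 CPM, under 2-fold when centred (log2 ratio 0.93), while Fli1, its relative, stood at 91.2 and 63.1 CPM. Hopx, an atypical homeodomain protein outside this list, stood at 2.43 and 54.5 CPM. The part of RNA from other cell types in its level was not tested.

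Signalling genes were mostly within 2-fold, as were tested genes in general, of which 9.17% were higher and 3.21% lower. Of 11 tested Notch genes 2 were higher (Dll4 and Hey1) and none lower. Neither stayed past 2-fold when ratios were centred on the median (log2 ratios of 0.95 and 0.87). The same held with the whole lungs labelled control and null as E18.5, which were not reporter-sorted (0.59 and 0.60 for Dll4, 0.18 and 0.67 for Hey1). Notch1 stood at 142 and 196 CPM and Jag1 at 172 and 100 CPM. Of 8 tested VEGF ligands and receptors 1 was higher, Flt4, whose call was lost when centred as given above. Centring made 1 lower instead, Vegfc, whose log2 ratio was -0.91 before it. Kdr (VEGFR2) stood at 308 and 414 CPM. Of 18 tested genes of BMP and TGF-beta signalling 3 were higher and 1 lower. Tgfbr3 stood at 7.36 and 27.1 CPM, Bmp6 at 9.81 and 23.2 CPM, and Tgfb2, a ligand, was lower at 154 and 55.1 CPM. Bmp6 was under 2-fold in 4 of 11 other settings, the lowest log2 ratio being 0.75 when cells with any UMI of 9 cycle genes were left out, and Tgfb2 was under it without the marked cells (-0.95). Of 8 tested Wnt genes 2 were higher and 2 lower. Nkd1, a feedback target of Wnt signalling, stood at 4.65 and 56.1 CPM, Tspan12, a Norrin co-receptor, at 33.8 and 96.8 CPM (under 2-fold with the whole lung labelled control as E18.5, 0.85), and Sfrp2, a secreted Wnt modulator, was lower at 79.5 and 17.8 CPM. Sfrp2 was found in 79.0% of collagen cells and 6.59% of ECs at E15.5, and its place in ECs apart from RNA of those cells was not tested. Of 15 tested guidance genes 4 were higher and none lower, among them Efnb1 (16.7 and 68.6 CPM) and Sema3c (0.412 and 20.7 CPM), a semaphorin that reached 405 CPM at P8.
Of 5 tested chemokine genes other than Cxcl12 4 were higher and none lower, Ackr2, a scavenger receptor, standing at 1.10 and 36.8 CPM.

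Basement membrane genes had no common direction. Of 18 tested members 2 were higher, 2 lower and 14 within 2-fold. Col18a1, whose collagen chain releases endostatin (chr10:77052178-77166548, minus), stood at 517 CPM (511 to 523) at E15.5 and 126 CPM (123 to 129) at E18.5, and was found in 55.0% and 18.8% of thinned ECs. It continued lower at P8, at 23 CPM, and stood at 911 CPM at E13.5. Hspg2 (perlecan) was just past 2-fold lower at 251 and 124 CPM, but its log2 ratio was -0.83 in all ECs, -0.50 without the marked cells, and -0.25 and -0.49 with the whole lungs labelled control and null as E18.5. Sparcl1 was higher at 533 and 1815 CPM and Lama5, a laminin chain of mature vessels, at 14.9 and 44.9 CPM, although Lama5 was under 2-fold with the whole lung labelled null as E18.5 (log2 ratio 0.56). Col4a1, the main collagen IV chain, stood at 834 and 861 CPM. Fn1 (fibronectin) was lower at 186 and 55.1 CPM, but at 128 CPM in the whole lung labelled control, where the difference from E15.5 was under 2-fold. Integrin genes were higher in 4 of 8 tested members and lower in none, with a median log2 ratio of 1.13. Itgb5, an integrin chain, was higher at 2.37 and 38.5 CPM and at E18.5 stood at 178 CPM in aerocyte-marked against 5.53 CPM in arterial-marked cells.

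The 20 lowest ratios are given by gene. Igfbp2, which binds insulin-like growth factors (chr1:72824503-72852474, plus), had the lowest, with 104 CPM (101 to 107) at E15.5 and 6.91 CPM (6.20 to 7.67) at E18.5, a log2 ratio of -3.82. It was found in 15.6% and 1.23% of thinned ECs and in 13.9% and 7.81% of collagen cells. Of the 9 tested genes of IGF ligands, receptors and binding proteins it was the 1 lower, with Igf1 the 1 higher (log2 ratio 1.72) and a median of 0.31. Igfbp3, with a log2 ratio of -0.93, was lower as well when ratios were centred. Mdk (midkine), a heparin-binding growth factor, stood at 334 and 89.1 CPM, Serpinf1 (PEDF), an inhibitor of vessel growth, at 205 and 55.3 CPM, and Cthrc1, a secreted glycoprotein of matrix, at 269 and 77.2 CPM. Serpinf1 was highest in arterial-marked cells at both ages, with 238 and 84.8 CPM. Basp1, a membrane protein of growing neurites, stood at 98.9 and 11.5 CPM. Lgals1 (galectin-1) stood at 180 and 50.8 CPM, Arhgdib at 58.5 and 15.1 CPM, Ralgps2, an exchange factor for Ral GTPases, at 92.6 and 25.6 CPM, and the myosin light chain gene Myl9 at 54.2 and 13.3 CPM. The collagen cells carried several of these more widely than ECs, Mdk in 82.1% against 42.1%, Lgals1 in 97.9% against 24.2% and Myl9 in 65.6% against 7.54% at E15.5. Collagen cells also made up more of the E15.5 library, 1714 cells against 192, and their part in these differences was not tested. In the whole lungs at E18.5, which held 4332 and 4091 such cells, Mdk stood at 69.1 and 93.4 CPM in ECs and Lgals1 at 76.6 and 67.1 CPM.

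Other genes among the 20 lowest ratios encode enzymes, for which no list was set. Aprt, which salvages adenine (chr8:122574635-122576909, minus), stood at 688 CPM (681 to 695) and 177 CPM (174 to 181), and was found in 67.0% and 27.0% of thinned ECs. Its level was alike in the marker divisions at E15.5, from 648 to 690 CPM, and at E18.5, from 147 to 201 CPM. Odc1 and Srm, which make putrescine and spermidine, stood at 79.9 and 19.3 CPM and at 65.9 and 20.3 CPM. Nme1 and Nme4, nucleoside diphosphate kinases, stood at 320 and 88.6 CPM and at 51.3 and 7.71 CPM, Nme1 sharing stretches of its 3′ ends with a read-through gene. Ppa1, which clears pyrophosphate, stood at 94.3 and 28.8 CPM. Unlike Aprt, Odc1 was lowest at E15.5 in arterial-marked cells, with 48.7 CPM against 244 to 329 CPM in the other divisions. Cks1b, a subunit of cyclin-dependent kinases and no enzyme itself, stood at 135 and 38.2 CPM, and it shares stretches of its 3′ end with another locus. Gsto1, a glutathione transferase, stood at 78.6 and 11.1 CPM. Ribosomal proteins took 23.3% of UMIs at E15.5 and 17.7% at E18.5, with 5 of 86 tested genes lower and a median log2 ratio of -0.40. In the whole lungs at E18.5 they took 21.8% and 21.3%, nearer to E15.5. The mitochondrial genes took 5.42% and 4.12% in sorted ECs and 4.80% and 4.93% in the whole lungs. Of 28 nuclear genes of oxidative phosphorylation 1 was lower, Atp5g1, and none higher, with a median of -0.40. Lower genes made up 3.21% of all tested ones, and 2 of the 28 were lower when ratios were centred. Atp5g1 stood at 525 and 240 CPM and stayed past 2-fold in 14 of 15 other settings, its weakest log2 ratio being -0.92. Cholesterol synthesis had 2 of 15 genes lower, 4 when ratios were centred, and a median of -0.54, with Sqle at 33.4 and 14.1 CPM. Glycolysis had none of 12 genes past 2-fold.

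Of 16 tested fetal RNA-binding and imprinted genes 5 were lower and none higher. H19, an imprinted non-coding RNA (chr7:142575529-142578143, minus), stood at 895 CPM (887 to 903) and 340 CPM (335 to 346), and at 1577 CPM at E13.5 and 55.0 CPM at P8. It was found in 55.3% and 23.8% of thinned ECs and in 76.7% and 32.8% of collagen cells. Plagl1, a zinc finger factor that controls other imprinted genes, stood at 153 and 49.1 CPM, Hmga2, a chromatin protein of fetal cells, at 32.6 and 10.2 CPM, Igf2bp2 at 23.1 and 6.73 CPM, and Nnat at 21.9 and 2.90 CPM. Mest and Igf2bp3 were within 2-fold, at 1004 and 1279 CPM and at 33.9 and 33.6 CPM.

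Immediate-early and stress genes were mostly higher at E18.5 in the sorted cells, 15 of 19 tested members with a median log2 ratio of 1.65, and the median was 0.71 and 1.05 with the whole lungs labelled control and null as E18.5. Of 10 tested flow-responsive genes 5 were higher, 4 when ratios were centred, and none lower, and Nos3 and Pi16 had log2 ratios of -0.19 and -0.65. Klf2, a flow-induced factor, stood at 904 and 2214 CPM in sorted cells and at 806 and 1096 CPM in the whole lungs labelled control and null. Fos stood at 205 and 1180 CPM against 556 and 508 CPM in the whole lungs. Hspa1a and Hspa1b, which encode inducible HSP70, stood at 23 and 415 CPM and at 7.36 and 119 CPM in sorted cells, but at 2.51 to 4.60 CPM in the whole lungs, so their direction turned there. Age and the handling of each library cannot be told apart for these genes.

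Transcripts of other cell types also differed. Sftpc, surfactant protein C of alveolar epithelium, stood at 0.687 CPM at E15.5 and 140 CPM at E18.5 in non-cycling ECs, and at 1751 and 617 CPM in the whole lungs. It was found in 3.36% of thinned ECs and 4.69% of collagen cells at E18.5, so ECs did not hold it more often than those, and the source of these UMIs was not tested. S100a8 and S100a9, neutrophil genes, had no UMI at E15.5 (upper limit 0.0724 CPM) and stood at 25.8 and 28.2 CPM at E18.5, in 0.123% and 0.101% of thinned ECs. Hbb-bs, a globin gene whose 3′ end is shared with Hbb-bt, stood at 169 and 757 CPM.

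The genes with the highest and lowest ratios were also read in the whole lungs at E18.5. Of the 20 highest 18 were at least 2-fold above sorted E15.5 in each whole lung, and Hspa1a and Hspa1b were lower there. Sftpc, of alveolar epithelium, is among those 18, and the whole lungs were not sorted against epithelial cells. Of the 20 lowest 18 were at least 2-fold below in the library labelled control and 19 in that labelled null. Arhgdib stood at 85.7 and 64.0 CPM in these, above its 58.5 CPM at E15.5. The immune list summed to 1521 and 647 CPM in ECs of the whole lungs labelled control and null. In sorted ECs it summed to 30.2 CPM at E15.5 and 82.8 CPM at E18.5. The part of such RNA in these differences was not tested. Each ratio taken with a whole lung has the same E15.5 library as its base. At P8 Car4 stood at 271 CPM, Cd36 at 629 CPM and Fmo1 at 569 CPM, above their E18.5 levels, while Tbx2 at 87.4 CPM, Cyp4b1 at 158 CPM and Prx at 94.6 CPM stood near theirs. At E13.5 the 114 non-cycling ECs held Igfbp2 at 172 CPM, Basp1 at 213 CPM and Mdk at 639 CPM, above their E15.5 levels.

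**Figure D5:**
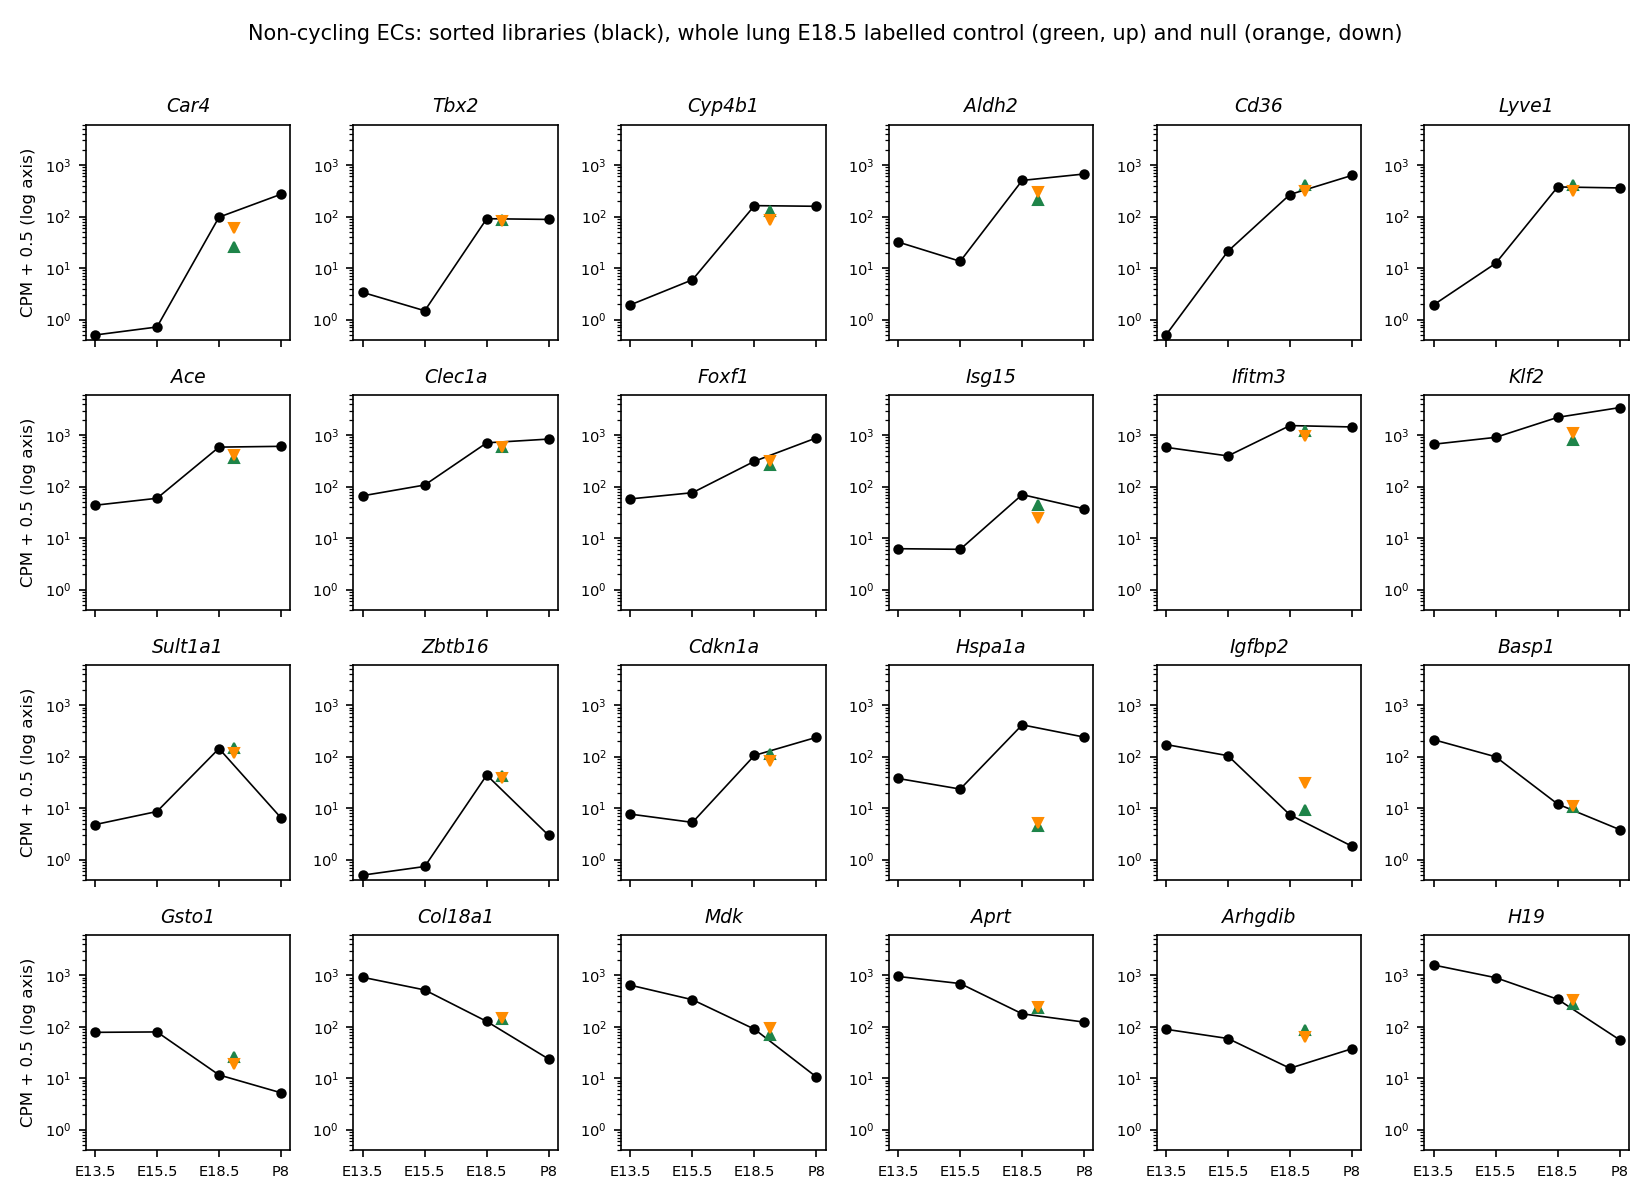
Level of 24 genes in non-cycling ECs, in CPM plus 0.5 on a log axis, in the 4 sorted libraries by age (black, joined) and in the E18.5 whole lungs labelled control (green) and null (orange). Each point is 1 library. The whole lungs lie near the sorted E18.5 level for Tbx2, Lyve1 and Zbtb16 and far below it for Hspa1a, and Sult1a1 and Zbtb16 are high only at E18.5 among the libraries plotted.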

How the data were processed

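Single-cell suspensions of lungs were captured with 10x 3′ v3 chemistry. Cell Ranger served the authors for alignment (mm10), and they deposited counts, whole-number UMIs per gene and cell without normalization. File headers name Cell Ranger 3.0.2 for sorted E15.5, E18.5 and P8 and 3.1.0 for E13.5 and the whole lungs, and the submitters' processing notes list Cell Ranger 3.1 and Seurat 3.2.2. Expected counts adjusted for free RNA were not used.

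From the counts, cells were filtered and classed as described, UMIs were summed over cells and scaled to 1000000 (CPM), and ratios took a pseudocount of 0.5 CPM. Depth per library was 63746333 to 117522172 UMIs, and the printed intervals (95%) and shares cover counting error only. Shares used cells thinned to 2000 UMIs, which left out 25 ECs at E15.5 and 148 at E18.5. Doublets were not removed in the values shown. As an alternative, cells with the highest 8% of Scrublet scores were taken out of each library, since its own threshold called 416 cells at E15.5 and 0 at E18.5. Calculations used Python 3.11.15, scipy 1.17.1, pandas 2.3.3 and scanpy 1.11.5, and ratios were tested on simulated data. Places and strands come from GENCODE M21 (GRCm38). In the last 300 bases of transcripts of 153 named genes, 24 held a 60-base stretch found in another gene, among them Odc1, Pcna, Ccnb1, Atp5g1, Sult1a1, Cyp4b1 and Itgb5, whose counts are uncertain to that extent.

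Named genes are the 20 highest and 20 lowest ratios in non-cycling ECs among genes of at least 50 CPM that are past 2-fold in all ECs too, without haemoglobin, mitochondrial, ribosomal, sex-linked and predicted genes. Further names are up to 4 listed members in each direction, the defining members of a list, the 5 genes in each direction whose ratio changed most when cycling cells were left out, and the genes of the rule and the sort. Other listed members named in the text within 2-fold, and some past it, were chosen after their values were seen. The members, lists and motifs were chosen with earlier results of these data known.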

Additional observations from a re-analysis of the deposited data

How the results depend on the processing

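With 1 library an age, the intervals cover counting error and say nothing of differences between lungs, litters or captures. No paired analysis was possible because each age has 1 library and no replicate number. Of 147 named genes past 2-fold, 100 stayed past it under every alternative that gave a value (a gene under the minimum in a setting has none there, as for Hspa1b in the whole lungs) and 4 changed direction under at least 1. With the whole lungs as E18.5, 104 of 135 (labelled control) and 106 of 134 (labelled null) stayed past it. The numbers of genes higher and lower moved with the minimum: 360 and 155 in all ECs (335 and 118 in non-cycling) at 50 CPM, and 1319 and 708 (1218 and 700) with no minimum. Leaving out cells with arterial, aerocyte or lymphatic markers gave 1009 higher and 475 lower (951 and 441). Centring on the median ratio gave 425 lower (317 in non-cycling ECs), and leaving mitochondrial, ribosomal and haemoglobin genes out of the total gave 437 (318), with the higher share of calls at 56.5% (62.5%). Other settings, including the mean of per-cell CPM, thinning, Scrublet and the whole lungs as E18.5, stayed within 1.5 times. The share of cycling cells without thinning was 32.2% at E15.5 and 10.6% at E18.5. With the whole lungs labelled control and null as E18.5, the log2 ratio turned for Arhgdib (0.55 and 0.13), Hspa1a (-2.36 and -2.20), Laptm5 (1.59 and 0.46), the median of the mesenchymal list (0.22 and 1.09, from -1.53 over 1 tested gene, Tagln) and, labelled control only, Klf2 (-0.17). The median of the lymphatic list went from 1.60 to -0.91 without marked cells, and that of the immune list from 5.72 (over 3 genes, Laptm5 and, with no UMI at E15.5, S100a8 and S100a9, so that it was 2.62 with a pseudocount of 5 CPM) to -3.01 by the mean of per-cell CPM and -3.15 thinned. The cause was not tested.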

Other observations

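Genes answering to low oxygen were higher in 4 of 13 tested members and lower in none, with a median log2 ratio of 0.75 against 0.17 for all genes. Ndrg1 stood at 30.4 CPM at E15.5 and 132 CPM at E18.5, Ankrd37 at 137 and 364 CPM, and Bnip3 at 16.9 and 40.6 CPM, although Bnip3 shares stretches of its 3′ ends with other loci. Ankrd37 was under 2-fold with the whole lung labelled control as E18.5 (log2 ratio 0.69). Hif3a, an inhibitory relative of the oxygen-sensing factors, stood at 6.69 and 32.6 CPM, at 54.8 and 39.5 CPM in the whole lungs and at 0.0191 CPM at P8. Epas1 (HIF-2α) was at 213 and 360 CPM and Hif1a at 90.1 and 71.9 CPM, both within 2-fold. Slc2a1, the glucose transporter GLUT1, was at 24.4 and 23.5 CPM.

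Caveola and junction genes were higher in 3 of 14 tested members and lower in none, against 9.17% higher and 3.21% lower over all tested genes. Cav2 stood at 153 and 393 CPM, Cavin2 at 283 and 621 CPM, and Ocln (occludin) at 12.9 and 35.1 CPM, while Cav1 stood at 1008 and 1599 CPM. Cavin2 was under 2-fold when ratios were centred on the median (log2 ratio 0.96), and Cavin2 and Cav2 were under it with either whole lung as E18.5 (0.87 and 0.91, and 0.88 and 0.94), as was Ocln with that labelled control (0.71). Laptm5, a lysosomal protein counted among the immune genes, was lower at 22.8 and 2.88 CPM and was found in 3.83% of thinned ECs at E15.5 against 0.059% of collagen cells. In ECs of the whole lungs labelled control and null it stood at 69.7 and 31.7 CPM, where the whole immune list summed to 1521 and 647 CPM. The level of Laptm5 at E15.5 was 25.4 CPM in arterial-marked and 6.99 CPM in aerocyte-marked cells.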
